A study of Mus musculus with 4 samples.

Results

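The response to lipopolysaccharide (LPS) of macrophages that lack CD163 was measured as the difference between 2 of the 4 arrays of a mouse study, 1 from CD163-deficient cells with LPS and 1 from CD163-deficient cells without it. The cells were resident peritoneal macrophages, phagocytes that float in peritoneal fluid, taken from C57BL/6 mice. All 4 groups were kept in RPMI medium with serum for 2 days. The LPS groups were then exposed to 100 ng/mL LPS for 1 day. The wild-type pair, 1 array with LPS and 1 without, had the same culture and is given side by side. Of 30222 genes and transcripts on the array, 26188 were well above background on at least 1 of the 2 CD163-deficient arrays and were compared. Of these, 24463 were well above background on both, 478 with LPS alone and 1247 without LPS alone. Each group holds 1 array, so no difference below has a replicate check, an error between cultures or a test, and genes were called by size alone. The labels used here do not say which part of the Cd163 gene is missing, or how many animals gave the cells of an array.

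LPS, the endotoxin of Gram-negative bacteria, is bound by CD14 and by the receptor TLR4 with its partner MD-2. The adaptor MyD88 leads from there to NF-kB and the first inflammatory genes, and the adaptor TRIF leads to interferon beta, which acts back on the cell through STAT proteins and switches on the antiviral genes. CD163, the gene product missing here, is a macrophage surface receptor that clears haemoglobin bound to haptoglobin.

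Levels are log2 intensities relative to the 75th percentile of the same array, so that 0 stands for that percentile, and a difference is the level with LPS minus the level without it. A level belongs to 1 probe and was not compared between genes, except in the summed levels of cell markers, where the brightest probes count most. No spot of the arrays was saturated, and a probe printed 10 times on an array had a median standard deviation of 0.10 to 0.12 (log2) between its spots. The 90th percentile of this standard deviation was 0.51 to 0.61. That spread lies within an array and not between cultures. Where a gene was well above background on 1 of the 2 arrays alone, its value on the other array was replaced. The lowest level well above background on that array was used, unless the probe itself read more, and then its reading was kept. The difference is given as at least so many fold, a bound by this rule and not by a detection limit of the probe. For readings that were kept, as for Trem3 and Cd209a below, it equals the measured difference.

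Cd163 itself, the gene missing in these mice, was near the lower end of the scale on every array, with a level of -6.0 without LPS and -5.48 with LPS in CD163-deficient cells. In wild-type cells the levels were -5.47 and -5.01. Its 1 probe lies on chromosome 6 from 124270436 to 124270495 (mm9), at base 2610 of the transcript. The 60 bases of that probe are shown because they are all that the array reads of the gene. Whether they lie inside the deleted part is not stated, so they check nothing about the genotype.
Cd163 probe: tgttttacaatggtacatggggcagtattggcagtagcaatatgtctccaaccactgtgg

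General macrophage markers were present on both arrays. Of 20 such markers, all were compared, 3 were at least 2-fold higher with LPS, 1 was at least 2-fold lower, and the median difference was 0.13. Adgre1, which encodes the surface antigen F4/80, had a level of 6.61 without LPS and 7.18 with it, Cd68, a lysosomal glycoprotein, had 7.34 and 6.91, and Lyz2, lysozyme, had 7.89 and 7.99. Gata6, the transcription factor that defines large peritoneal macrophages, had a level of 0.04 without LPS and -2.04 with it.

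Over all genes compared, the difference with LPS had a median of 0.04, and its 5th and 95th percentiles were -1.05 and 1.29. With LPS 1899 genes (7.25%) were at least 2-fold higher, and 1442 (5.51%) were lower by 2-fold or more. Past 4-fold lay 643 higher (2.46%) and 300 lower genes (1.15%). The response was lopsided at its far end, where 110 genes were at least 16-fold higher against 13 lower, and 22 genes were at least 64-fold higher against 0 lower. It was also lopsided in the brightest and the dimmest genes. With a mean level of 2 or more, 514 of 4126 were at least 2-fold higher and 180 lower, and with a mean level under -4 the counts were 501 and 295 of 5930. Bounds enter the dim counts, and the lowest level well above background was -6.25 without LPS and -5.75 with LPS. With all differences taken as measured, 1987 genes were at least 2-fold higher and 1697 lower. The part of the bounds in the dim counts was not tested. Between a mean level of -2 and 0 the lower genes outnumbered the higher ones, 350 against 266 of 5163. Several probes stood for some genes. Of 3341 genes called, 721 had 2 or more probes well above background on both arrays, and in 121 of these the probes differed in sign, so such genes were not named as leading genes.

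**Figure D1:**
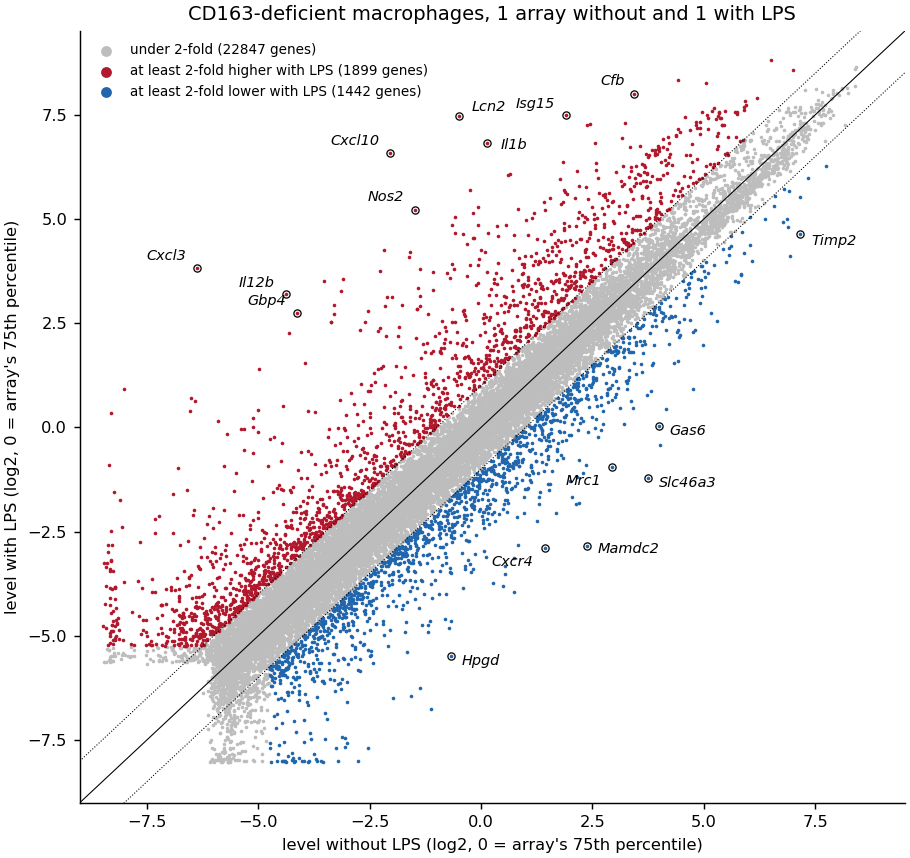
Level of each of 26188 genes without LPS (x axis) and with LPS (y axis) in CD163-deficient macrophages, both log2 relative to the array's 75th percentile, with 1 point a gene. The solid line marks equal levels and the dotted lines a 2-fold difference as measured. The 1899 red genes reach farther from the line than the 1442 blue ones, and grey points beyond the dotted lines at the lower ends are genes well above background on 1 array whose bound stays under 2-fold.

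Among genes well above background on both arrays, the largest difference was that of Cxcl10, a chemokine that draws T cells through the receptor CXCR3. Its level was -2.03 without LPS and 6.59 with LPS, a 395-fold difference (8.63). Lcn2, which encodes lipocalin 2, a protein that withholds iron from bacteria, went from -0.49 to 7.47 (249-fold). Il12b, a subunit of interleukins 12 and 23, stood at -4.38 and 3.20 (192-fold). The inflammatory cytokine genes Il1a (131-fold), Il1b (102-fold, from 0.14 to 6.81) and Il6 (85.6-fold) and the inducible nitric oxide synthase gene Nos2 (103-fold, from -1.48 to 5.21) came with them. So did Gbp4 (118-fold) and Ifi44 (94.9-fold), both induced by interferon. Ch25h, which makes the oxysterol 25-hydroxycholesterol, was 51.9-fold higher, and Gpr84, a receptor for medium-chain fatty acids, was 40.9-fold higher. Rasgrp1, an activator of Ras, was 64.6-fold higher on its brighter probe (6.01) and had a difference of 3.35 on another.

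Some transcripts came up from below detection. Cxcl3, a neutrophil chemokine, could not be told from background without LPS, and its difference was at least 1082-fold. The same holds for Gp6, a collagen receptor known from platelets (at least 118-fold), Tarm1, a leukocyte receptor (at least 99.8-fold), Saa2, an acute-phase protein (at least 96.4-fold), Trem3, a receptor of the TREM family (at least 66.2-fold), and Il12a, the second subunit of interleukin 12 (at least 25.9-fold). Slc1a2, a glutamate transporter, was at least 124-fold higher on its brightest probe, while another of its probes, well above background on both arrays, had a difference of 0.27.

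The genes furthest down had varied roles. Mamdc2 went from a level of 2.37 to -2.84 (37.1-fold lower), and Slc46a3, a lysosomal transporter, from 3.75 to -1.21 (31.1-fold lower). Hpgd, the enzyme that inactivates prostaglandins, went from -0.68 to -5.48 (27.8-fold lower). Rasgrp3, which activates Ras family GTPases as Rasgrp1 does, was 25.8-fold lower, and Cxcr4, the receptor of the chemokine CXCL12, was 19.8-fold lower. Gas6, which bridges dying cells to the receptors of the TAM family, went from 3.99 to 0.05 (15.4-fold lower), and the mannose receptor gene Mrc1 from 2.93 to -0.96 (14.9-fold lower). Rgs2, a brake on G-protein signals, was 14.3-fold lower on its brighter probe, and its other probe had a difference of -2.39. Clec10a, a galactose-binding lectin (at least 18.1-fold lower), Cd209a, a lectin of the DC-SIGN family (at least 9.22-fold lower), and Slc9a9, an endosomal ion exchanger (at least 20.7-fold lower), were not well above background with LPS.

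**Figure D2:**
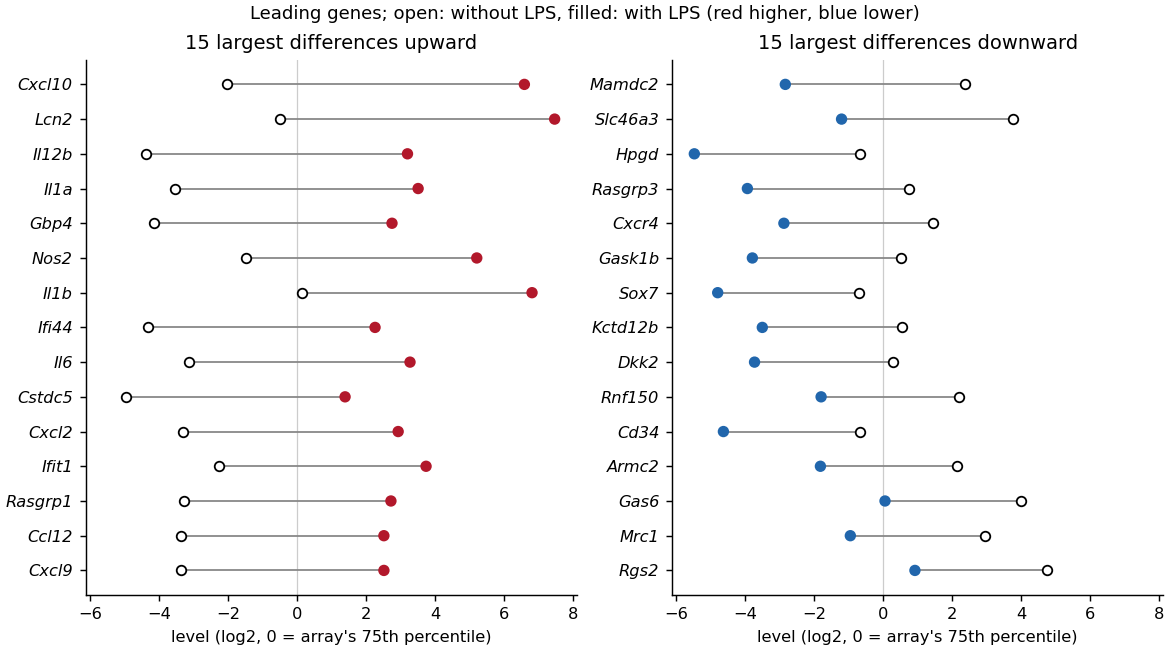
Levels without LPS (open circles) and with LPS (filled circles) of 15 leading genes a direction, ranked by difference among genes well above background on both arrays, on a log2 scale where 0 is the array's 75th percentile, with 1 array per circle. The span upward runs from 5.88 for Cxcl9 to 8.63 for Cxcl10, and the span downward from -3.83 for Rgs2 to -5.21 for Mamdc2.

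Lists of genes with a shared role show how far these differences were common to a pathway. The 59 lists hold 1349 compared genes, of which 538 were called, and 139 genes are in more than 1 list. The counts below are read against the shares over all genes, 7.25% for higher and 5.51% for lower genes past 2-fold, and the medians against 0.04. No list was tested.

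**Figure D3:**
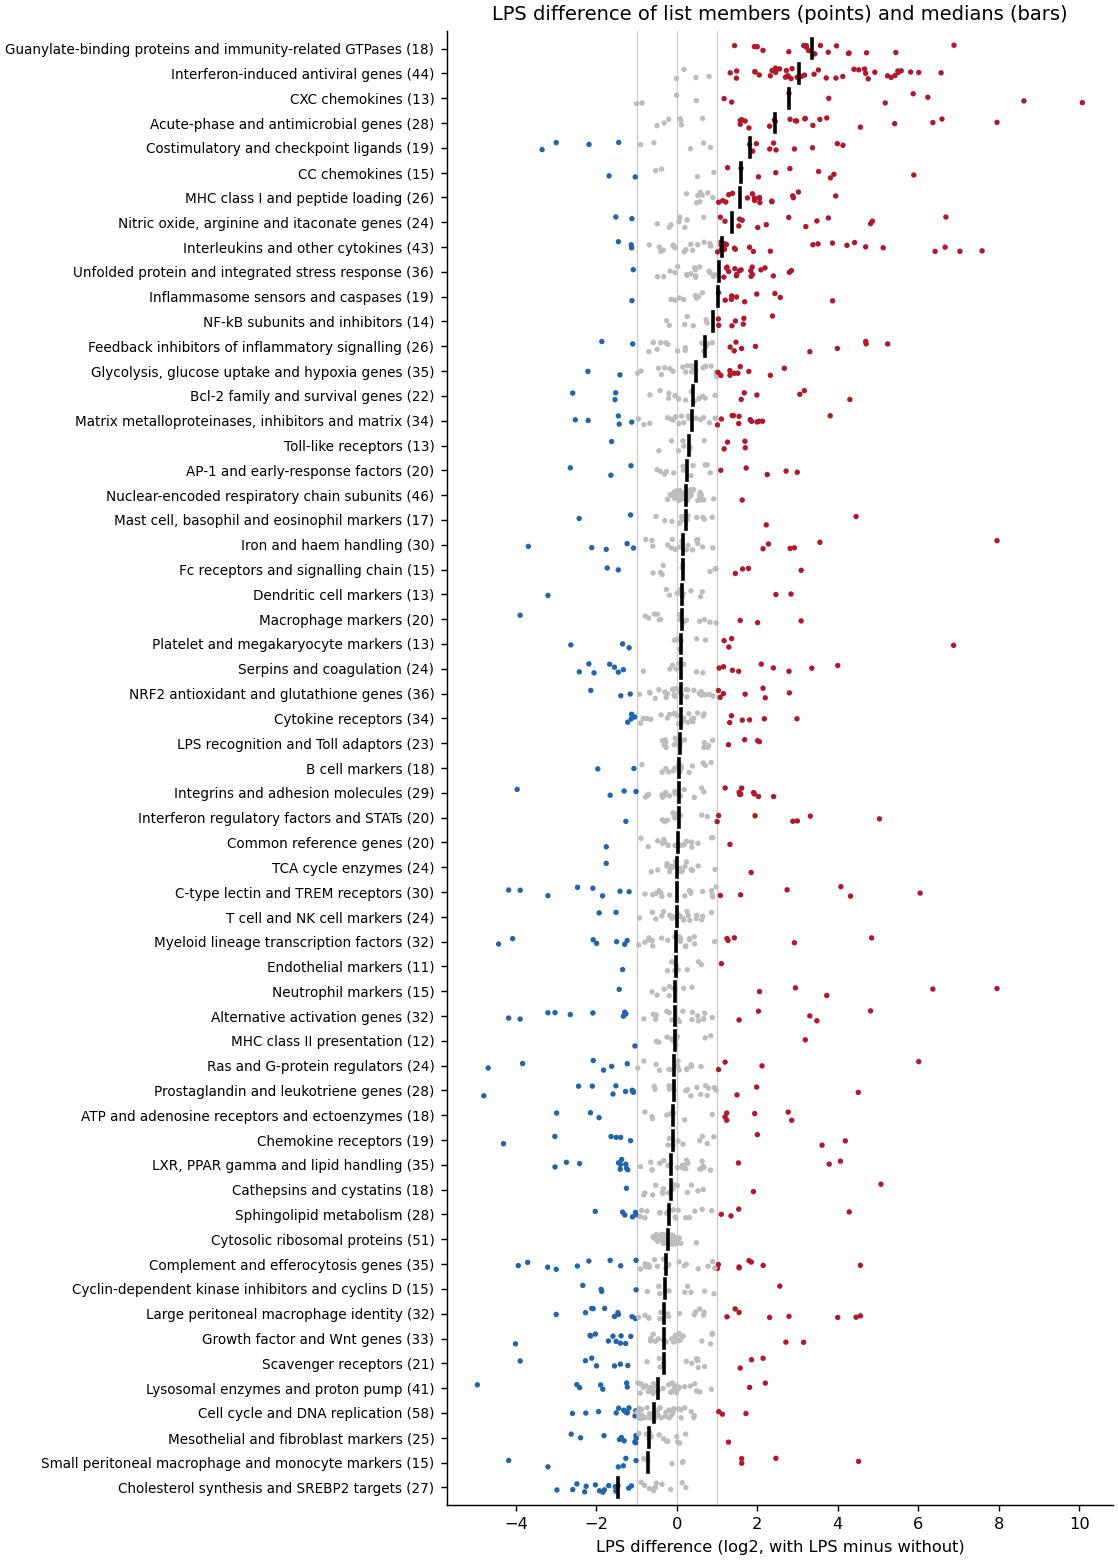
Difference with LPS minus without LPS (log2) of each compared member of the 59 gene lists (points, red at least 2-fold higher, blue at least 2-fold lower, grey between) and the list's median (black bar), with the number of members in brackets. Medians run from -1.46 for cholesterol synthesis to 3.35 for guanylate-binding proteins and immunity-related GTPases.

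Most of the receptors and adaptors that recognise LPS were under 2-fold, though the share of higher genes (17.4%) was above that over all genes. Of 23 genes of this list 4 were at least 2-fold higher and 0 lower (median 0.07). Cd14, which hands LPS to TLR4, went from 3.95 to 5.96, Irak3, an inhibitory kinase of the pathway, from 2.02 to 4.07, Casp4, the caspase that binds LPS in the cytosol, from 2.40 to 4.09, and Myd88 from 1.77 to 3.05. Among the Toll-like receptors and their partners (4 of 13 higher, 1 lower, median 0.31), Tlr1 (1.69) and Tlr2 (1.26), which form a receptor for bacterial lipoproteins, were higher. Tlr13, a sensor of bacterial ribosomal RNA, was lower (-1.62).

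Several NF-kB genes were higher, inhibitors among them. In the list of subunits and inhibitors, 7 of 14 were at least 2-fold higher and 0 lower (median 0.89). Nfkbia, which holds NF-kB in the cytosol, went from 3.73 to 6.11 (2.38), and Nfkbie (1.67), Nfkbib (1.65) and Nfkb2 (1.46) followed. The activating subunits Rela (0.41) and Rel (-0.19) were under 2-fold.

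Feedback inhibitors of inflammatory signals included some of the larger differences. Of 26 members 10 were at least 2-fold higher and 2 lower (median 0.69). Socs3, a suppressor of cytokine signals, went from -0.58 to 4.66 (37.8-fold) and Socs1 from -1.78 to 2.93 (4.71). Tnfaip3, which encodes the ubiquitin-editing enzyme A20, had a difference of 1.95. Early-response factors were split, with Batf2 (2.99), Batf (2.72) and Ier3 (2.25) higher and Egr2 (-2.65), Fos (-1.64) and Jun (-1.14) lower after the day with LPS.

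Cytokine genes were higher in 25 of 43 cases and lower in 3 (median 1.11). Tnf, the tumour necrosis factor gene, went from 0.37 to 4.60 (4.23). Ifng, which encodes interferon gamma, went from -5.11 to 0.02 (5.13), and Inhba, a subunit of activin, from 1.15 to 5.02 (3.87). Csf3, the granulocyte growth factor gene, was below detection without LPS and had a difference of at least 3.51. Ifnb1, the interferon beta gene itself, was near the lower end on both arrays, at -5.90 and -4.80 (1.1). Lower were Tgfb2 (-1.45) and Tgfb3 (-1.13), both of the transforming growth factor family, and Il16 (-1.12).

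Chemokine genes were higher in both families. Of 13 CXC chemokines 9 were at least 2-fold higher and 0 lower (median 2.79). Beside Cxcl10 and Cxcl3 these included the neutrophil chemokines Cxcl2 (6.24) and Cxcl1 (5.18), the T cell chemokine Cxcl9 (5.88), and Cxcl13, which draws B cells (3.78). Cxcl11 had a level of 7.30 without LPS and 7.29 with it. Of 15 CC chemokines 9 were higher and 2 lower (median 1.59). Ccl12, a monocyte chemokine, went from -3.37 to 2.52 (5.89), Ccl5 from 4.42 to 8.32 (3.90) and Ccl2 from 1.87 to 5.69 (3.82), while Cx3cl1 (-1.68) and Ccl6 (-1.03) were lower.

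Receptors for these ligands had no common direction. Of 19 chemokine and chemoattractant receptors 3 were at least 2-fold higher and 6 lower (median -0.09). Fpr2 (4.19) and Fpr1 (3.61), which sense formylated bacterial peptides, and Ccrl2 (2.00), which binds chemerin, were higher. Cxcr4, Cxcr3 (-3.03), the fractalkine receptor gene Cx3cr1 (-1.64) and the complement receptor gene C3ar1 (-1.40) were lower. Among 34 cytokine receptors (6 higher, 4 lower, median 0.10), Il15ra went from 2.19 to 5.18 (2.99) and Il1r1 from -1.16 to -2.38 (-1.22).

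Antiviral genes induced by interferon were higher almost throughout. Of 44 antiviral genes 40 were at least 2-fold higher and 0 lower (median 3.04). Isg15, a ubiquitin-like modifier, went from 1.91 to 7.48 (47.7-fold). Mx1, a GTPase that blocks influenza virus, went from -1.60 to 4.22 (56.2-fold), and Rsad2, which encodes viperin, from -0.65 to 4.85 (45.1-fold). Ifit1 (64.6-fold) and Ifit3 (40.2-fold), which bind viral RNA, Oasl1 (42.9-fold), of the oligoadenylate synthetase family, and Zbp1, a sensor of nucleic acids (4.52), were higher too. The range was wide, since Samhd1, which depletes nucleotides, had a difference of 1.48 and Oas1b one of 0.80.

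All 18 compared members of the guanylate-binding protein and immunity-related GTPase list, whose products attack the vacuoles of intracellular pathogens, were at least 2-fold higher (median 3.35). Tgtp2 went from 0.61 to 6.05 (43.5-fold on its brightest probe, and a difference of 2.53 on another), Gbp5 from -0.32 to 4.39 (4.72), Gbp2 from 2.56 to 6.82 (4.27) and Igtp from 1.01 to 4.98 (3.97). The smallest difference was that of Gbp10 (1.43). These genes lie in families of near-identical copies, so that a probe can read more than 1 of them.

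The factors that drive this programme were more selective. Of 20 interferon regulatory factors, STATs and Janus kinases 7 were at least 2-fold higher and 1 lower (median 0.04). Irf7, which amplifies interferon genes, went from -0.40 to 4.64 (32.8-fold). Jak2 (3.00), Stat2 (2.88) and Irf1 (1.95) were higher, while Irf3, Irf5 and Irf8 lay between -0.05 and -0.03 and Irf4 was lower (-1.27). The difference of Stat3 was 1.00.

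Promoters of some of these genes show the letters through which interferon signals are known to act. RefSeq promoters (GRCm38.p6, 250 bases before the start of transcription) were found for 15414 of the 26188 genes compared. The core of the interferon-stimulated response element was searched as GAAANNGAAA on both strands, where N is any base, and 2.91% of all these promoters held it. It was present in 12.9% of the 404 promoters of genes at least 4-fold higher with LPS and in 2.12% of the 189 promoters of genes at least 4-fold lower. Of the antiviral genes 12 of 34 promoters held it, and 9 of 10 for the guanylate-binding proteins and immunity-related GTPases. The interferon gamma activated site, TTCNNNGAA, was in 6.6% of all promoters and in 6 of those 10. The NF-kB motif was in 8.06% of all promoters, in 4 of 10 for CXC chemokines, 1 of 10 for CC chemokines, 9 of 30 for cytokines, 7 of 19 for MHC class I and 7 of 34 for antiviral genes. For guanylate-binding proteins and immunity-related GTPases it was in 1 of 10. It was in 11.6% of the promoters of genes at least 4-fold higher. These promoters are shown for their letters, chosen after their values were seen, and capitals mark matches on either strand. In Isg15 and Ifit1 the capitals are the response element core, in Gbp5 that core and the interferon gamma activated site, and in Cxcl10 that core and the NF-kB motif, with 2 of its matches overlapping. A match is a match of letters and not a measured site.
Isg15 (chr4:156200819-156201068, minus strand): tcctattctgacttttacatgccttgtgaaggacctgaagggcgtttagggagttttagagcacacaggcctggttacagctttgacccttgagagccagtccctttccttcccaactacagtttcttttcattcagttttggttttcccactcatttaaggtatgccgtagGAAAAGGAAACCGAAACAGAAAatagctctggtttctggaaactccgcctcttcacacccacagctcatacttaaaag
Ifit1 (chr19:34640639-34640888, plus strand): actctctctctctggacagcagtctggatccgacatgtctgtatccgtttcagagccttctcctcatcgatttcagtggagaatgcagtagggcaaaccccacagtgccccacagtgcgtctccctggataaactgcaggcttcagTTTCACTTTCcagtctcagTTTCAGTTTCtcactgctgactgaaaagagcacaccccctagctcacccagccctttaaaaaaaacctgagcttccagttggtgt
Gbp5 (chr3:142496684-142496933, plus strand): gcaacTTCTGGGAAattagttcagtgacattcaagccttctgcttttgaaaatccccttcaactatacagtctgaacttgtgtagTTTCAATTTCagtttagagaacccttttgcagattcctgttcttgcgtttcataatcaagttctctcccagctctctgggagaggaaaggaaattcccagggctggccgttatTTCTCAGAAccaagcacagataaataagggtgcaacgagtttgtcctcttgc
Cxcl10 (chr5:92348890-92349139, minus strand): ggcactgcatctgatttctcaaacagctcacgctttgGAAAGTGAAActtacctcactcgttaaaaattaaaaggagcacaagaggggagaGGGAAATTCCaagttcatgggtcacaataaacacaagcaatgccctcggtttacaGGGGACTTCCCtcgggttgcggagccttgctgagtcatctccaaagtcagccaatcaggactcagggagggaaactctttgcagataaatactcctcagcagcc

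In the promoters as printed, the core began at positions -78, -72 and -66 from the start in Isg15, at -104 and -85 in Ifit1, at -165 in Gbp5 and at -213 in Cxcl10. Cxcl10 and Gbp5 each hold both the interferon core and the NF-kB motif within these 250 bases. The NF-kB match of Gbp5 was not marked and stands in lower case, as ggaaattccc.

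Antigen presentation differed by class. Of 26 genes of MHC class I and its peptide loading, 18 were at least 2-fold higher and 0 lower (median 1.57). H2-Q8, a class Ib molecule, went from 1.56 to 5.50 (3.95), Tap1, a subunit of the peptide transporter, from -0.33 to 2.56 (2.90), and Psmb8, a subunit of the immunoproteasome, from 3.35 to 5.71 (2.36). Nlrc5, the activator of class I genes, had a difference of 2.36. Class II genes were at least 2-fold higher in 1 of 12 cases and lower in 1 (median -0.06). The invariant chain gene Cd74 went from 6.01 to 5.51 and the class II activator gene Ciita from -2.34 to -2.58. H2-Oa, which restrains class II loading, was higher (3.19), and Ifi30, a lysosomal thiol reductase, was lower (-1.04).

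Costimulatory and checkpoint ligands moved apart. Of 19 members 10 were at least 2-fold higher and 4 lower (median 1.81). Cd274, which encodes the inhibitory ligand PD-L1, went from 1.42 to 5.41 (3.99), Cd40 from 0.33 to 3.70 (3.37) and Icosl from -1.08 to 1.84 (2.92). Cd83 went the other way, from 2.16 to -1.19 (-3.35), as did the inhibitory ligands Vsig4, from 4.98 to 1.98 (-3.0), and Vsir, from 3.47 to 1.29 (-2.18). The classical costimulators Cd86 (0.83) and Cd80 (-0.90) were under 2-fold.

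Effector enzymes that use arginine were among the genes that differed most. In the list of nitric oxide, arginine and itaconate genes 14 of 24 were at least 2-fold higher and 2 lower (median 1.37). Beside Nos2, Slc7a2, which imports arginine, went from -1.08 to 3.73 (4.82), Gch1, which makes the cofactor of nitric oxide synthase, from 2.55 to 4.78 (2.22), and Ass1, which regenerates arginine from citrulline, from 4.28 to 6.29 (2.01). Arg1, the arginase that competes with Nos2, was also higher (-0.65 to 2.83). Acod1, which makes itaconate, went from 2.38 to 7.25 (4.86). Gchfr, a feedback inhibitor of Gch1, was lower (-1.12).

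Acute-phase and antimicrobial genes were at least 2-fold higher in 21 of 28 cases and lower in 0 (median 2.43). Cfb, complement factor B, went from 3.42 to 7.99 (4.56), Cp, the copper protein ceruloplasmin, from 0.39 to 3.95 (3.56), Camp, the cathelicidin gene, from -2.41 to 1.32 (3.73), and Saa3, a serum amyloid A of macrophages, from 6.51 to 8.82 (2.31). The stefin genes Cstdc5 (6.36), Cstdc4 (5.41) and Csta2 (5.12), inhibitors of cathepsins, were higher too, and they are close copies of each other. Of 19 inflammasome sensors and caspases 10 were higher and 1 lower (median 1.04), with Mefv, the pyrin gene (3.87), Nod2 (2.44), Casp1 (1.36), Gsdmd, the pore protein of pyroptosis (1.36), and Nlrp3 (1.20). Nlrp1b was lower (-1.12).

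Genes of prostaglandins and leukotrienes were lower more often than higher. Of 28 members 3 were at least 2-fold higher and 9 lower (median -0.08). The 3 higher genes were enzymes. Pla2g4a, the phospholipase that frees arachidonic acid, went from 0.88 to 2.38, Ptgs2, the inducible cyclooxygenase, from -1.36 to 3.15, and Ptges, the synthase of prostaglandin E2, from 4.08 to 6.06. Lower were the constitutive cyclooxygenase Ptgs1 (2.03 to 0.44) and the prostaglandin D synthase Hpgds (1.13 to -1.31), and Hpgd, which inactivates prostaglandins. The leukotriene enzymes Alox5 (-2.10), Alox5ap (-1.09) and Ltc4s (-1.08) were lower, as were the receptor gene Ptger4 (-1.51) and Alox15 (-1.11), a lipoxygenase of resident peritoneal macrophages.

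**Figure D4:**
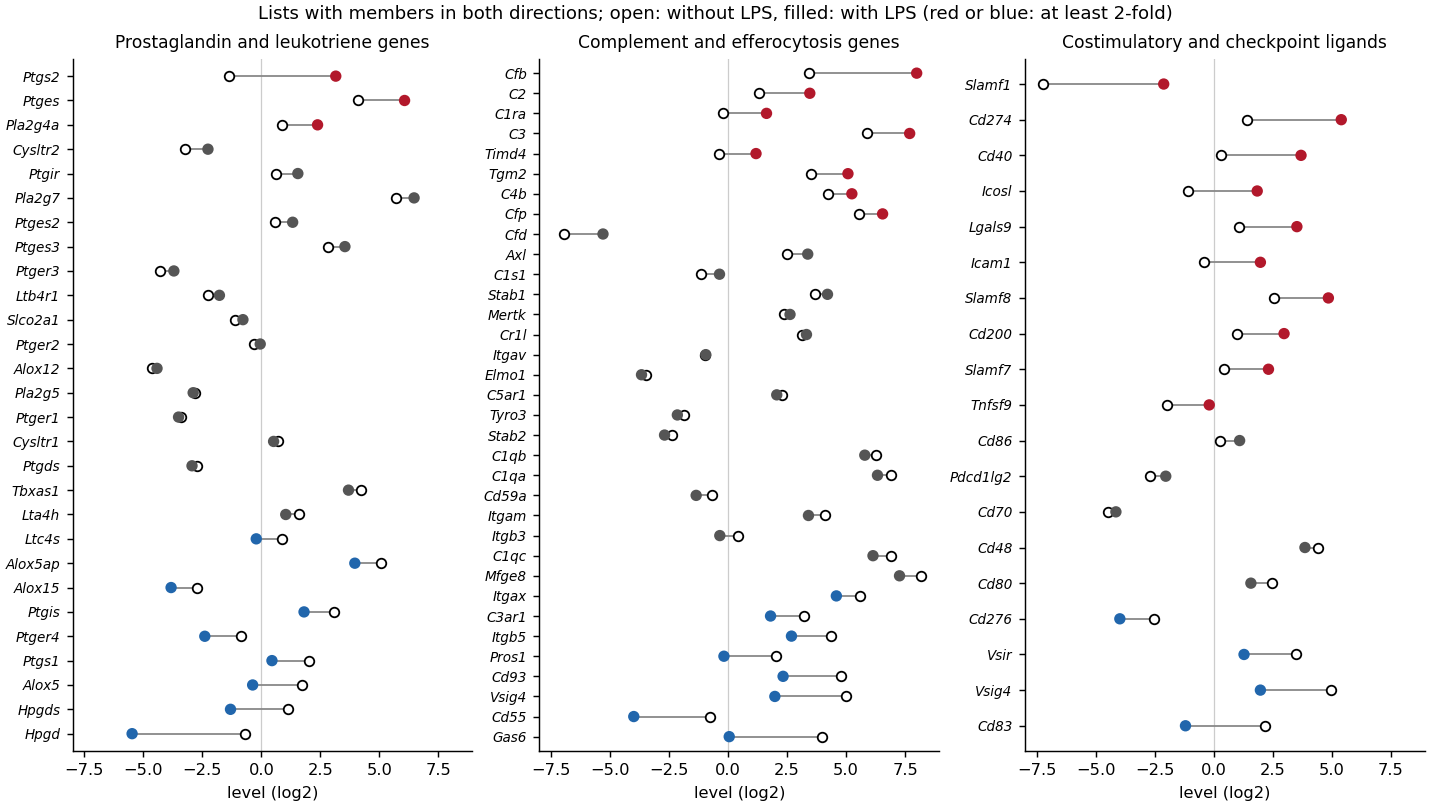
Levels without LPS (open circles) and with LPS (filled circles, red at least 2-fold higher, blue at least 2-fold lower, grey between) for 3 lists with members in both directions (1 member of the second is not drawn), log2 relative to the array's 75th percentile, 1 array per circle. Ptgs2 and Ptges sit at the top of the first panel and Hpgd at its foot, Cfb and Gas6 at the ends of the second, and Slamf1 and Cd83 at those of the third, where Slamf1 is coloured by its bound.

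Cholesterol synthesis was the list furthest down. Of 27 genes 25 were lower, 16 of them at least 2-fold, and 0 were at least 2-fold higher (median -1.46). Idi1, of the isoprenoid steps, went from 1.85 to -0.74 (-2.59), Msmo1 from 4.45 to 2.16 (-2.29) and Sqle, which makes squalene epoxide, from 2.50 to 0.24 (-2.25). Stard4, a carrier of cholesterol (-2.48), and Insig1, which holds the sterol sensor in place (-2.02), were lower too. Srebf2, the regulator of the pathway, had a difference of -0.57 on its brighter probe and of -1.24 on its other probe.

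The sterol regulatory element, searched as TCACNCCAC on both strands, was in 0.993% of all promoters and in 1 of 19 promoters of this list. That 1 is Hmgcs1, an early enzyme of the pathway, whose promoter is shown with the match in capitals, at position -137 from the start. CCAAT was in 16 of these 19 promoters, against 35.8% of all, but also in 34 of 49 for cell cycle genes and in 13 of 19 for MHC class I. The brightest Hmgcs1 probe had a difference of -1.92 (3.03 to 1.1), and a dim probe to another transcript had 0.14.
Hmgcs1 (chr13:119690101-119690350, plus strand): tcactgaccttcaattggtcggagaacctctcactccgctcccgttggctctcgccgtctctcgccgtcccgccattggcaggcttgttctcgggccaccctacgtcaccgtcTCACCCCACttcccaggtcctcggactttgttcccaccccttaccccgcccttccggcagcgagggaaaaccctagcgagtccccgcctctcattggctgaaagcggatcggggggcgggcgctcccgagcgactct

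Other lipid genes were mixed. Of 35 genes of LXR, PPAR gamma and lipid handling, 3 were at least 2-fold higher and 10 lower (median -0.15). Dgat2, which makes triglycerides (4.07), and Acsl1, which activates fatty acids (3.79), were higher. Pparg, a nuclear receptor of lipid metabolism (-3.03), the fatty acid carrier gene Fabp4 (-2.75), the lysosomal lipase gene Lipa (-2.42), the fatty acid receptor gene Cd36 (-1.40) and Lpl, lipoprotein lipase (-1.37), were lower. Of 28 sphingolipid genes 4 were higher and 6 lower (median -0.20). Smpdl3b, a membrane enzyme related to acid sphingomyelinase, went from -1.44 to 2.85, and Cers4, a ceramide synthase, from 0.20 to -1.83.

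Glucose metabolism was higher in part. Of 35 glycolysis, glucose uptake and hypoxia genes 10 were at least 2-fold higher and 2 lower (median 0.47). Slc2a6, a hexose transporter, went from 3.32 to 5.99 (2.67), Pfkfb3, which speeds glycolysis, from 2.05 to 4.37 (2.33), Hk2, hexokinase 2, from -0.22 to 1.57 (1.79), and Slc16a3, which exports lactate, from 2.22 to 3.74 (1.52). Aldoc, an aldolase, was lower (-2.21). In the TCA cycle 1 of 24 genes was higher and 1 lower (median 0.02), with Pcx, which makes oxaloacetate from pyruvate, at 1.85 and Idh1 at -1.76. Nuclear-encoded subunits of the respiratory chain were at least 2-fold higher in 1 of 46 cases (Cycs, cytochrome c, 1.62) and lower in 0. Their median of 0.23 became -0.00088 with quantile normalization and with the deposited value table.

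Iron genes, the pathway closest to the receptor that is missing, were split. Of 30 members 6 were at least 2-fold higher and 5 lower (median 0.16). Hp, which encodes haptoglobin, the plasma protein that CD163 recognises with haemoglobin, went from 2.78 to 5.59 (2.82). Hmox1, haem oxygenase 1, which breaks down haem, went from 4.20 to 6.34 (2.14), and Slc25a37, which brings iron into mitochondria, from 2.25 to 4.53 (2.28). Slc40a1, which encodes the iron exporter ferroportin, went from 2.03 to -1.66 (12.9-fold lower), and the transferrin receptor gene Tfrc from 1.45 to -0.31 (-1.75). Spic, a transcription factor of red pulp macrophages, was higher (-0.81 to 2.11), and Lrp1, the receptor for haem bound to haemopexin, was lower (4.68 to 2.57).

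Stress genes were higher as a group. Of 36 genes of the unfolded protein and integrated stress response 18 were at least 2-fold higher and 1 lower (median 1.06). Atf4, the central transcription factor of the integrated stress response, went from 4.69 to 6.52 (1.84), and genes it is known to drive were higher, such as Mthfd2 (2.85), Trib3 (2.40), Asns (2.19), Chac1 (1.85) and Ddit3 (1.56). Chaperones of the endoplasmic reticulum, Creld2 (1.88), Manf (1.87), Hspa5 (1.48) and Pdia6 (1.44), were higher too. Atf6, a sensor of unfolded protein, was lower (-1.08). Of 36 NRF2 and glutathione genes 7 were higher and 3 lower (median 0.10). Slc7a11, which imports cystine, went from -2.05 to 0.75 (2.80), and Prdx5, a peroxiredoxin, from 6.19 to 7.89 (1.70), while Gpx3 (-2.14) and the catalase gene Cat (-1.39) were lower.

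Genes of complement and of the uptake of dying cells lay in both directions. Of 35 complement and efferocytosis genes 8 were at least 2-fold higher and 9 lower (median -0.27). Among complement components, C2 (2.15), C1ra (1.85) and C3 (1.79) were higher beside Cfb. Regulators were lower, with Cd55, which limits complement on cell surfaces, going from -0.79 to -4.0 (-3.21), and Vsig4, which also binds C3 fragments. Of the bridging molecules Gas6 and Pros1 (-2.19) were lower and Mfge8 went from 8.17 to 7.26 (-0.90). Of the receptors they serve, Mertk (0.24) and Axl (0.89) were under 2-fold.

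Scavenger receptors were at least 2-fold higher in 3 of 21 cases and lower in 7. Their median was -0.33, and it was 0.23 with normexp background correction and 0.24 with the brightest probe chosen on these 2 arrays alone. Marco, which binds bacteria, went from 7.0 to 8.58 (1.57), and Olr1, a receptor of oxidised lipoproteins, from -1.11 to 1.03 (2.14). Mrc1, Cd5l (-2.27), a secreted protein of the scavenger receptor family, Colec12 (-2.0) and Scarb1, the receptor of high-density lipoprotein (-1.55), were lower. C-type lectin and TREM receptors were at least 2-fold higher in 6 of 30 cases and lower in 8 (median 0.01), with Clec4e, the receptor Mincle, going from 3.22 to 7.30 (4.08) and Trem2, a lipid receptor, from 6.77 to 4.92 (-1.85). Clec7a, the beta-glucan receptor Dectin-1, went from 6.89 to 4.81 (-2.09). Among Fc receptors (4 of 15 higher, 2 lower, median 0.15), the high-affinity receptor gene Fcgr1 went from 0.69 to 3.78 (3.09).

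Lysosomal genes were lower on balance, 31 of 41 of them, with 7 at least 2-fold lower and 2 higher (median -0.46). Beside Slc46a3, the lower genes included Atp6v0a1 (-2.49) and Atp6v0d2 (-1.89), subunits of the proton pump, and Pla2g15, a lysosomal phospholipase (-1.84). Tfeb, the transcription factor that drives lysosomal genes, went from 0.32 to -0.92 (-1.23), and Acp5, an acid phosphatase, was higher (1.81). Among cathepsins and cystatins (2 of 18 higher, 1 lower, median -0.16), Cst7, an inhibitor of cathepsins, went from -2.15 to 2.92 (5.07) and Ctsc from 2.99 to 4.89 (1.90), and Lgmn, an endopeptidase, was lower (-1.25).

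Matrix and clotting genes were higher more often than lower. Of 34 matrix metalloproteinases, inhibitors and matrix genes 12 were at least 2-fold higher and 5 lower (median 0.38). Mmp3 was below detection without LPS and had a difference of at least 3.81, and Mmp13 (1.86), Mmp14 (1.41) and Mmp9 (1.37) were higher. The inhibitors went opposite ways, Timp1 from 2.96 to 4.95 (1.99) and Timp2 from 7.16 to 4.63 (-2.52). Of 24 serpins and coagulation genes 9 were higher and 7 lower (median 0.11), with Serpinb2, an inhibitor of plasminogen activators, going from 2.16 to 6.16 (4.00) and Procr, the protein C receptor, from 2.63 to 5.99 (3.35), while the thrombomodulin gene Thbd was lower (1.12 to -0.94).

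Signals through purines also separated. Of 18 receptors and ectoenzymes for ATP and adenosine, 6 were at least 2-fold higher and 3 lower (median -0.09). The adenosine receptor genes Adora2a (-0.83 to 2.03) and Adora2b (-1.52 to 1.25) were higher. Entpd1, which degrades extracellular ATP (-2.15), and P2ry1, an ADP receptor (-2.99), were lower. Among Ras and G-protein regulators (4 of 24 higher, 6 lower, median -0.07), Rasgrp1 and Rasgrp3 lay at opposite ends, and Rgs18 (-2.08), Rgs1 (-1.82) and Rasa3 (-1.62), which damp such signals, were lower beside Rgs2.

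Genes of cell division were lower by small amounts. Of 58 cell cycle and replication genes 48 were lower, 12 of them at least 2-fold, and 3 were at least 2-fold higher (median -0.57). Cenpa, of the centromere (-2.26), Stmn1, a microtubule regulator (-1.95), Birc5, survivin (-1.27), and Ccnb2, a mitotic cyclin (-1.23), were lower. Among inhibitors and D cyclins (1 of 15 higher, 4 lower, median -0.28), the growth arrest gene Gadd45b went from 0.56 to 3.12 (2.56), and Ccnd1 (-1.88), Cdkn1c (-2.34) and Cdkn2c (-1.87) were lower. Of 22 survival genes 6 were higher and 3 lower (median 0.40). Higher were Traf1 (4.30), Cflar, an inhibitor of caspase 8 (3.06), and Mlkl, the executor of necroptosis (3.17), and lower were the pro-death genes Bmf (-2.59), Bcl2l11 (-1.54) and Bbc3 (-1.52).

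Adhesion and growth factor genes had members in both directions. Of 29 integrins and adhesion molecules 9 were at least 2-fold higher and 4 lower (median 0.05), with Icam1 going from -0.43 to 1.98 (2.40), Vcam1 from -0.14 to 1.42 (1.56) and Cd34 from -0.67 to -4.64 (-3.97). Of 33 growth factor and Wnt genes 2 were higher and 11 lower (median -0.33). Wnt6 (3.15) and Tgfbi, an extracellular protein induced by transforming growth factor (2.71), were higher, and Dkk2, a Wnt regulator (-4.01), Lrp6, a Wnt co-receptor (-2.16), Pdgfc (-2.14) and Igf1 (-1.39) were lower.

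The identity of large peritoneal macrophages was altered in both directions. Of 32 marker genes 8 were at least 2-fold higher and 10 lower (median -0.31). With Gata6 (-2.08), Cd9 (-1.79), F5, clotting factor V (-1.55), and Alox15 (-1.11) were lower. Prg4, which encodes the lubricant lubricin, went from -0.65 to 3.91 (4.56), Hdc, which makes histamine, from -4.74 to -0.28 (4.45), and Timd4, a phosphatidylserine receptor, from -0.37 to 1.18 (1.55). Among 32 myeloid transcription factors (5 higher, 7 lower, median -0.01), Gfi1, a transcriptional repressor needed for neutrophil development, went from -5.76 to -0.92 (4.84), and Sox7 (-4.08) and Cebpa (-1.99) were lower.

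Genes of alternative activation were also split, with 5 of 32 at least 2-fold higher, 9 lower and a median of -0.05. Arg1, Slc7a2 and Il1rn, the decoy ligand of the interleukin 1 receptor (3.31), were higher, as were Ccl17 (2.03) and Tgm2 (1.55). Mrc1, Clec10a, Cd209a, Pparg, Egr2 and Clec7a were lower, and so was Irf4 (-1.27). Cd163, which this list also holds, had a difference of 0.52.

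Markers of other cells were read from the same arrays, in which fewer cells of a type and less RNA per cell cannot be told apart. Mesothelial and fibroblast markers were at least 2-fold lower in 10 of 25 cases and higher in 1 (median -0.69), and their summed level went from 7.33 to 7.04 (log2). Upk1b, of the mesothelium (-1.9 to -4.29), and Msln, mesothelin (-2.86 to -4.67), were lower. Markers of small peritoneal macrophages and monocytes were lower in 6 of 15 cases and higher in 4 (median -0.72, summed level 6.23 to 6.93). Ly6c1 was higher (1.85 to 6.36) and made up most of that sum with LPS. Ccr2, the defining receptor of these cells, was well above background on 1 of the 2 arrays alone. T and NK cell markers were lower in 2 of 24 cases and higher in 0 (summed level 3.65 to 3.46), and B cell markers lower in 2 of 18 and higher in 0 (5.76 to 5.85).

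Neutrophil markers were at least 2-fold higher in 5 of 15 cases and lower in 1 (median -0.04), and their summed level went from 5.94 to 7.97. Most of that sum with LPS was Lcn2, which went from -0.49 to 7.47. Over the 8 neutrophil markers with a level of -2 or more on at least 1 array, the median was 1.66. Those higher were Lcn2, Cstdc5, Camp, S100a8 (2.95) and Ly6g (2.05). The granule genes Mpo (-2.52 to -3.14), Ltf (-4.47 to -4.97) and Elane (1.19 to 1.15), the receptor gene Cxcr2 (-5.49 to -5.68) and S100a9, the partner of S100a8 (-4.41 to -4.73), were not higher, and Ngp and Retnlg were not well above background on either array. Ly6g lies among other Ly6 genes that were higher and resemble it in sequence. Dendritic cell markers were higher in 2 of 13 cases, Bst2 and Zbtb46, and lower in 1 (summed level 6.94 to 7.80). Endothelial (1 of 11 higher, 1 lower), mast cell, basophil and eosinophil (2 of 17 higher, 2 lower) and platelet markers (4 of 13 higher, 3 lower, with Gp6 and the chemokine Pf4 among the higher) completed these lists. The part of such cells in the differences above was not tested.

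Cytosolic ribosomal proteins and common reference genes served as controls. Of 51 ribosomal protein genes 0 were 2-fold apart (range -0.59 to 0.49), although 47 were lower (median -0.21). Of 20 reference genes, Pgk1 was at least 2-fold higher (1.32) and Tfrc lower, while Actb (0.24), Gapdh (0.37) and Ppia (0.14) were under 2-fold (median 0.02).

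Some of the higher genes lay near each other in the genome, in clusters that were picked by these values and are a description only. Positions are those of the array annotation (mm9), a cluster holding at least 5 genes at least 2-fold higher with gaps of at most 300 kb. On chromosome 1, from 175398876 to 175973019, 14 of 16 compared genes of the interferon-induced Ifi200 family and its neighbours were higher (median 2.28). On chromosome 19, from 34402164 to 34723855, 7 of 9 were, with Ch25h beside the Ifit genes (median 5.24). On chromosome 14, from 59877396 to 60020951, all 6 compared genes of the Phf11 region were higher (median 2.76), as were all 6 of the Gbp cluster on chromosome 3, from 142184779 to 142300778 (median 3.50). The CXC chemokine cluster on chromosome 5, from 91190490 to 91786948, held 10 of 13, and the growth factor genes Ereg and Areg lie in it. The Ms4a cluster on chromosome 19, from 11467221 to 11661426, held 9 of 11 (median 2.29). A cluster on chromosome 16, from 35833051 to 36569043, held 12 of 19 (median 2.28). Its higher genes include the stefin genes and also Parp14, Dtx3l, Parp9 and Fam162a. Members of such families resemble each other, so their probes are not independent readings. Other clusters by the same rule held a smaller share of higher genes. On chromosome 17, from 34753856 to 35610095, 14 of 73 compared genes were higher and 3 at least 2-fold lower (median 0.34). On chromosome 3, from 91828756 to 92879427, 11 of 48 were higher (median 0.29).

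In wild-type cells 1709 of 26713 genes were at least 2-fold higher with LPS (6.4%) and 1344 lower (5.03%). The 643 and 300 genes at least 4-fold apart in CD163-deficient cells nearly all pointed the same way there. Of 611 such higher genes compared in wild type too, 571 were at least 2-fold higher in wild type and 20 had the other sign, and of 293 lower genes 265 were at least 2-fold lower and 12 had the other sign. The median difference of the 611 was 2.75 in CD163-deficient and 2.33 in wild-type cells, where the genes were chosen by the CD163-deficient value. Single genes differed more. Cxcr4 had -4.31 against -2.32 in wild type, Gask1b -4.30 against -2.82, Ifng 5.13 against 3.47, Ccl12 5.89 against 4.68, Atf4 1.84 against 0.63 and Serpina3g 3.38 against 2.07, while Ccl17 had 2.03 against 3.57 and Slfn4 4.40 against 5.41. None of these differences between genotypes was tested.

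List medians lay close together in both genotypes. Guanylate-binding proteins and immunity-related GTPases had 3.35 in CD163-deficient cells and 3.37 in wild type, and antiviral genes 3.04 and 2.82. The acute-phase list had 2.43 and 1.88, and cholesterol synthesis -1.46 and -0.99. Broad housekeeping lists lay higher in the CD163-deficient pair, with ribosomal proteins at -0.21 against -0.58 and the respiratory chain at 0.23 against -0.19. Spike-in control probes also lay higher in the CD163-deficient pair, by a larger amount. The 7 of them with a level of -2.5 or more on every array differed by a median of -0.04 between the CD163-deficient arrays (-0.11 to -0.01) and of -0.98 between the wild-type arrays (-1.02 to -0.77). On a scale set by these controls the CD163-deficient differences are higher by that 0.04, with 2054 genes at least 2-fold higher and 1317 lower, while every wild-type difference would be higher by 0.98. The part of this offset in the differences between genotypes was not tested.

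**Figure D5:**
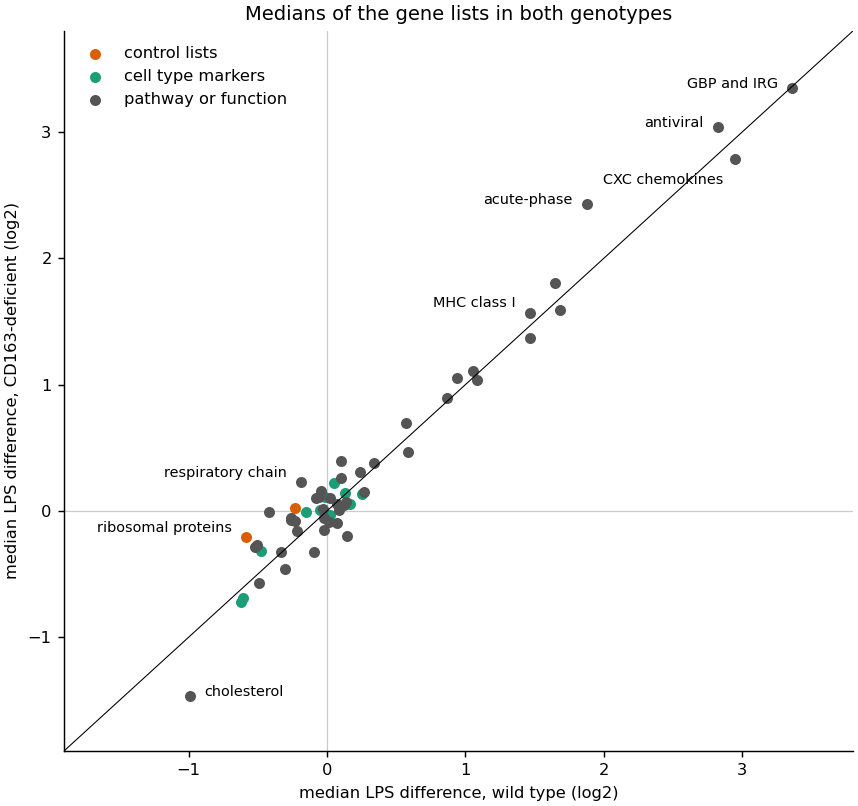
Median difference with LPS minus without LPS (log2) of each of the 59 gene lists in wild-type (x axis) and CD163-deficient cells (y axis), 1 point a list, coloured by kind, with the line of equal medians. Lists from cholesterol synthesis (-0.99, -1.46) to guanylate-binding proteins (3.37, 3.35) follow the line, and the respiratory chain lies on opposite sides of 0.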

How the data were processed

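Total RNA was measured on 1-colour Cy3 Agilent mouse arrays of design 026655, 1 array per group. Per the file headers, the deposited scanner files hold spot intensity from Feature Extraction 10.7.1.1, with background removed inside each array and no adjustment between arrays, and version 9.5.1.1 is the one in the submitters' processing notes. The deposited value table, used as an alternative, holds linear intensity with a median of 175.3 in every column. It differed from a quantile normalization of the same signals by a median of 0.0016 (log2) or less, its scale and centring being otherwise unstated.

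The processed signal was taken as log2 minus the array's 75th percentile of non-control spots, and spots of a probe were averaged (39429 probes). A gene was read from its brightest probe, by the mean of all 4 arrays. Names came from the accession for 19699 genes, a symbol for 2188 and an older symbol for 398, through a RefSeq table of a later assembly, and 7937 kept the name in the file. A probe counted as well above background where at least 50% of its spots were, by the deposited flags. With 1 array a side no model was fitted and no p-value is given. Named were Cd163, the 15 largest differences in each direction, the same among genes at -2 or above on the 2 arrays, the 8 largest bounds, the 8 largest differences between genotypes and members of the lists, clone names and genes with discordant probes being passed over. Promoter examples and clusters were added after their values were seen. The lists, rules and comparison were chosen with earlier results of these data known. The steps were tested on simulated levels. Alternatives were normexp (limma 3.58.1 in R 4.3.3, offset 50), quantile normalization, the median of detected probes, the deposited table, the mean of all probes, other detection filters and, added after the data were seen, spike-in scaling and undetected arrays taken as measured. Python 3.11.15 with numpy 2.4.6, pandas 2.3.3 and matplotlib 3.10.9 was used. A few genes that the rule names are not reported here.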

Additional observations from a re-analysis of the deposited data

Results flagged for a closer look

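Groups of 1 array allow no search for outlying samples. Where the LPS difference had opposite signs in CD163-deficient and wild-type cells, both beyond the spread of spots within arrays (0.15 on the log2 scale), genes named by the rule and gene lists were looked at again. The difference between the genotypes was not tested for any of them, and the genes were picked by its size. The signs are those of the percentile scale. Spike-in control probes differed by a median of -0.98 between the wild-type arrays. On a scale set by these controls every wild-type difference would be higher by that amount. The wild-type values of Gabre, Slc6a16, Sapcd2 and the respiratory chain below would then turn positive, as in CD163-deficient cells.

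In CD163-deficient cells the LPS difference was higher than in wild type for ND6, a mitochondrial gene (0.32 against -1.72, apart by 2.05), Gabre (0.64 against -0.68, apart by 1.33), Slc6a16 (1.04 against -0.21, apart by 1.25) and Sapcd2 (0.28 against -0.83, apart by 1.11). It was lower for Htatsf1 (-0.56 against 1.38, apart by -1.94), Sptlc1, of sphingolipid synthesis (-1.35 against 0.55, apart by -1.9), Ghdc (-0.36 against 1.32, apart by -1.69), Sowaha (-0.70 against 0.98, apart by -1.68), Frg1 (-0.65 against 1.02, apart by -1.66), Srebf2, the regulator of cholesterol synthesis (-0.57 against 0.99, apart by -1.56), Mpp5 (-0.92 against 0.62, apart by -1.54) and Rcor3 (-0.80 against 0.73, apart by -1.53). On the percentile scale, for these genes except Sptlc1 and Sowaha, the genotypes lay further apart without LPS than with it. The gap without LPS rests on the unstimulated wild-type array, where every spike-in control probe read highest. A bright control, for example, stood at 3.56 there, at 2.54 on the stimulated wild-type array and at 2.76 and 2.71 on the other arrays. Whether the order of the gaps holds on a scale set by these controls was not tested. The values of Srebf2 are those of its brighter probe, and its other probe had a difference of -1.24 in CD163-deficient cells. On the brighter probe Srebf2 stood at 1.77 (wild type) and 3.26 (CD163-deficient) without LPS, and at 2.76 and 2.69 with LPS. In the same order, ND6 had 0.81 and -0.95, then -0.91 and -0.62, and Sptlc1 0.15 and 0.52, then 0.70 and -0.83. The cause was not tested. Among the lists, the nuclear-encoded respiratory chain had a median of 0.23 against -0.19, apart by 0.41. Its CD163-deficient median was -0.00088 with quantile normalization and with the deposited table. Over the 8586 genes with a level of -2 or more on all 4 arrays, the response in CD163-deficient minus that in wild-type cells had a median of 0.09, with 20 genes at least 2-fold higher and 63 lower.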

How the results depend on the processing

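No paired analysis was possible because each group holds 1 array, and for the same reason no replicate could be left out. Over 11 alternatives the count of genes at least 2-fold higher, 1899 as reported, ran from 1208 to 2286, and that of genes at least 2-fold lower, 1442 as reported, from 867 to 1715. Beyond 1.5 times the reported count lay 1208 higher and 940 lower genes, of 14055 compared, when a level of -2 was required on at least 1 array, and 867 lower genes with normexp. The share of higher genes among those called was 56.8% as reported and 52.4% to 60.9% otherwise. Of 562 list and named genes called, 67 were under 2-fold with normexp, 25 with the mean of all probes, 19 with quantile normalization, 19 with the deposited table and 13 with spike-in scaling. The sign of Itga6, an integrin whose probes disagree, turned with the mean of all probes (0.094, against -1.31). The medians of 17 lists changed sign under at least 1 alternative, and 15 of these lay within 0.15 of 0 as reported. The others were the respiratory chain (-0.00088 with quantile normalization and with the deposited table) and scavenger receptors (0.23 with normexp and 0.24 with the brightest probe on the 2 arrays). With a level of -2 on at least 1 array, the neutrophil median went from -0.04 to 1.66 (8 genes) and the platelet median from 0.11 to -0.59 (6 genes). The cause was not tested. The spread of spots within arrays (a median of 0.15 for a difference) is the only error available. A dim gene well above background on both arrays, such as Cd163 or Ifnb1, is given as measured. A bound is used only where 1 array did not reach that mark.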
